A study of Homo sapiens with 4 samples.

Results

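The interleukin 1 family genes of human chromosome 2 lie in a ligand cluster and a receptor cluster, and CEBPB binding in both was described here in NCM460, an epithelial cell line derived from normal human colon. Sites were taken by position, in windows chosen with earlier results of these data known. They were CEBPB summits, the highest points of the peaks, and reproducible regions. The windows ran from 113.51 to 113.91 Mb (ligands) and from 102.59 to 103.09 Mb (receptors) of the hg19 build. A reproducible region is an interval with a global irreproducible discovery rate (IDR), a measure of how well the ranks of paired peaks match, no higher than 0.05 in the authors' deposited table. The windows held 7 of 25602 reproducible regions, 4 at the ligands and 3 at the receptors. They held 17 of 80530 summits of ChIP replicate 1 and 24 of 104307 summits of ChIP replicate 2. The series had 2 CEBPB ChIP samples, each precipitated with a CEBPB antibody from NCM460 cells for which the labels name no treatment, and 2 input samples of the same line, which entered the values only as the background of the peak caller. Per the series' design the replicates were separate experiments on this 1 line, with no other genotype or treatment, so nothing was compared between conditions.

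CEBPB (NF-IL6) is a basic leucine zipper factor that binds DNA as a dimer, and it was first described through an interleukin 1-responsive element of the IL6 gene. Interleukin 1 alpha and beta, the products of IL1A and IL1B, are inflammatory cytokines that signal through the receptor IL1R1, while IL1R2 is a decoy receptor and IL1RN encodes the receptor antagonist. IL36G is an epithelial cytokine of the same family, IL1RL1 is the receptor of interleukin 33, and IL18R1 and IL18RAP form the receptor of interleukin 18. Epithelia keep interleukin 1 alpha as a preformed alarm signal, and the colon epithelium responds to interleukin 1 during inflammation.

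The strongest CEBPB binding by reads lay between IL1A and IL1B. Next came a site 1.39 kb inside the lower end of IL1R1 and a site at IL1B itself. These 3 sites were the tallest in both replicates. For short, the site in IL1R1 is named from here on by the lower end of the gene. IL1R2, IL36G, IL1RN, IL1RL1, IL18R1 and IL18RAP had no reproducible region. The density over chromosomes 1 to 22 and X would give few regions in each stretch that holds them. By this count no single empty stretch sets its genes apart. Whether these stretches as a set held fewer regions than this density would give was not tested. The means from this density were 0.76 regions from the window edge to IL1R1 and 1.17 from IL36G to IL1RN. They were 0.14 in the IL1RN span and 1.35 in the stretch of IL1RL1, IL18R1 and IL18RAP. The IL1R1 span (mean 0.98) and the stretch from IL1A to IL1B (mean 0.44), each with 1 kb added, held 3 regions each. Gene positions came with the definition of the windows and are given to 1 kb, so distances are good to about 1 kb. "Above" and "below" mean higher and lower coordinates. IL1A and IL1B are read from the minus strand, so that sites above their positions lie upstream. IL1R1 is read from the plus strand, and its lower end is the 5′ end of its span. RefSeq gives IL1R1 4 promoters, whose starts were not placed on hg19. Sites inside the span may therefore lie nearer to a start than to the lower end.

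The promoters of IL1B and IL1A are shown because one carried a reproducible region at its position and the other did not, although taller binding lay farther upstream of it. Both are from RefSeq on the GRCh38.p14 build, minus strand, written 5′ to 3′ and ending at the base before the transcription start: IL1B at chr2:112836780-112837029 and IL1A, from its start farthest upstream, at chr2:112784494-112784743. Capitals mark matches to the C/EBP words TTGCNNAA and TTACNNAA on either strand.
IL1B: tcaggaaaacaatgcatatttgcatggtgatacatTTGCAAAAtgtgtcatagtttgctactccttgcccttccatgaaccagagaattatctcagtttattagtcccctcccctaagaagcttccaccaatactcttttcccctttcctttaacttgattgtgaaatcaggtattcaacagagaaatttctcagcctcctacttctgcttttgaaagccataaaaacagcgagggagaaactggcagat
IL1A: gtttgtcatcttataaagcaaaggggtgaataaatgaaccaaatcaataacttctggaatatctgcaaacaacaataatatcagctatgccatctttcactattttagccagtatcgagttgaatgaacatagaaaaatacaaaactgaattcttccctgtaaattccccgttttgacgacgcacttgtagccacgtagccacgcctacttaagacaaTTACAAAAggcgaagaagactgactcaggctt
The match in the IL1B promoter began 215 bases upstream of the start, and the match in the IL1A promoter 32 bases upstream. The IL1A promoter also held the AP-1 word TGANTCA, beginning 12 bases upstream. The peak positions are in another build, so the letters under the summits were not read.

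All 9 genes matched RefSeq promoters of 250 bases before and 50 after a start, 20 in all because most genes have several starts. A C/EBP word, TTGCNNAA or TTACNNAA, was found in 7 of the 20 (35.0%), against 17.3% of all 35116 promoters in the table. TTGCNNAA alone was in 2 of the 20 (10.0%), near its share of 10.5% of all. TTACNNAA was in 5 (25.0%, against 8.34% of all), and 2 of these 5 were the same letters in the overlapping IL1A promoters. These 7 belonged to IL1A (2 of 2, which overlap each other), IL1B (1 of 1), IL1RL1 (2 of 2), IL1R1 (1 of 4) and IL18RAP (1 of 3). None of the promoters of IL36G, IL1RN, IL1R2 or IL18R1 held one. The palindrome TTGCGCAA, which is contained in TTGCNNAA, and the composite C/EBP and ATF word TGATGCAA were in none of the 20, against 0.151% and 0.866% of all promoters. TGANTCA, on either strand, was in 4 of the 20 (20.0%, against 7.71% of all), and 2 of these 4 were the overlapping IL1A promoters. Both IL1RL1 promoters held a C/EBP word, and no reproducible region lay in that stretch.

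The tallest site of both windows lay on chromosome 2 at 113551691 to 113552257, 8.92 kb above the IL1A position and 42.1 kb below that of IL1B. Its summit rested on 158 fragments (extended reads, recovered from the deposited values) in replicate 1 and 175 in replicate 2, with 95% exact Poisson intervals of 134 to 185 and 150 to 203. Such intervals cover counting error only, since reads copied by PCR are not independent molecules. The fold enrichment over background, the authors' own value throughout, was 29.5 and 28.2, or 28.8 ± 0.91 (SD, n = 2). By fragments it stood above 93.1% of all reproducible regions in replicate 1 and above 91.8% in replicate 2. The replicate summits were 3 bp apart.

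At IL1B, the gene of the secreted cytokine interleukin 1 beta, a reproducible region spanned 113594017 to 113594862 with its main summit within 1 kb of the IL1B position. The summit held 79 fragments in replicate 1 (interval 62.5 to 98.5) and 101 in replicate 2 (interval 82.3 to 123). Fold was 31.2 and 24.5, or 27.8 ± 4.76 (SD, n = 2). With 846 bp it was the widest of the 7 regions and wider than 93.7% of all reproducible regions, whose median width was 421 bp. In replicate 1 the same peak carried a weaker second summit at 113594094, with 11 fragments and a fold of 3.74, and replicate 2 had none listed there.

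IL1A, the gene of interleukin 1 alpha, had no summit within 5 kb of its position in either replicate and reproducible regions on both sides. The nearest, at 113548181 to 113548408, lay 5.30 kb above the position and was weak. It had 34 fragments in replicate 1 and 28 in replicate 2, and a fold of 12.0 and 8.28 (10.1 ± 2.62, SD, n = 2). With 228 bp it was narrower than all but 0.312% of reproducible regions, and it lay 3.61 kb from the tallest site. Below the gene position by 16.8 kb, at 113526037 to 113526407, another region had 55 and 56 fragments and a fold of 17.3 and 11.4 (14.4 ± 4.15, SD, n = 2). The tallest site thus held over 4 times the fragments of its weak neighbour in each replicate.

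The 4 ligand regions all lay in the lower part of the window, and no reproducible region lay between 113.595 Mb, just above IL1B, and the upper edge at 113.91 Mb. From there to IL36G, replicate 1 had 4 summits and replicate 2 had 5, with at most 41 fragments in either replicate and a fold of at most 8.37 and 7.89. The tallest of these were a peak near 113627160 in replicate 1 with 41 fragments and a peak at 113627086 in replicate 2, also with 41, which overlapped each other. IL36G, a cytokine of skin and gut epithelium, had its nearest summit 19.5 kb below its position in replicate 1 (17 fragments, fold 3.35) and 19.4 kb below in replicate 2 (29 fragments, fold 7.60). The nearest reproducible region was 142 kb away, at IL1B. RefSeq places IL37 between IL1B and IL36G, where the weak summits lay.

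The 139 kb from IL36G to IL1RN held 0 summits in replicate 1 and 0 in replicate 2, where the density over chromosomes 1 to 22 and X would give a mean of 3.69 and 4.78. By the RefSeq gene order this stretch carries IL36A and IL36B, which encode agonists of the interleukin 36 receptor, IL36RN, its antagonist, and IL1F10. The lists hold only summits past the authors' threshold, so weaker binding cannot be seen. The whole run without a summit measured 166 kb in replicate 1 and 259 kb in replicate 2. Longer runs made up 3.53% and 1.10% of those between neighbouring summits. These shares count each run once, and a run chosen because it holds the IL36G position tends to be a long one. They therefore make the run look rarer than the share of the genome in longer runs would. IL1RN, the receptor antagonist, had 1 summit in its 17 kb span, at 113882247 in replicate 1 with 12 fragments and a fold of 6.05, and the peak had no partner in replicate 2.

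All 3 reproducible regions of the receptor window lay in the 115 kb span of IL1R1, the signalling receptor of both interleukin 1 forms. The tallest, at 102682151 to 102682611, was 1.39 kb above the lower end of the gene. It had 96 fragments in replicate 1 (interval 77.8 to 117) and 108 in replicate 2 (interval 88.6 to 130). Its fold was 40.4 in replicate 1, the highest of the 7 sites, and 21.8 in replicate 2, or 31.1 ± 13.2 (SD, n = 2). The fragments were close to each other, while the background, in scaled expected fragments, was 1.22 in replicate 1 and 3.00 in replicate 2. The fold also counts each fragment as 0.927 in replicate 1 and as 0.8 in replicate 2. How much of the difference in fold came from each was not tested. Among all reproducible regions 5.71% had a background ratio between the replicates at least as large.

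A smaller peak marked the lower end of IL1R1 itself. Its summits were at 102680912 in replicate 1 and 102680915 in replicate 2, with 25 and 33 fragments and folds of 8.05 and 6.85, and it was not in the IDR table. It lay within 1 kb of the gene end. Farther into the span, 30.6 kb above the lower end, the region at 102711430 to 102711770 had 48 fragments in replicate 1 and 39 in replicate 2, with folds of 15.2 and 8.05 (11.6 ± 5.03, SD, n = 2). The region at 102772343 to 102772754, 91.5 kb above the lower end and 23.5 kb below the upper end, had 38 fragments and 52 fragments. Its folds were nearly equal at 18.1 in each replicate, with the background at the floor that the peak caller sets (1.00 in replicate 1 and 1.36 in replicate 2). Replicate 2 also had a weak summit in the span at 102783242, with 13 fragments and no partner.

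**Figure D1:**
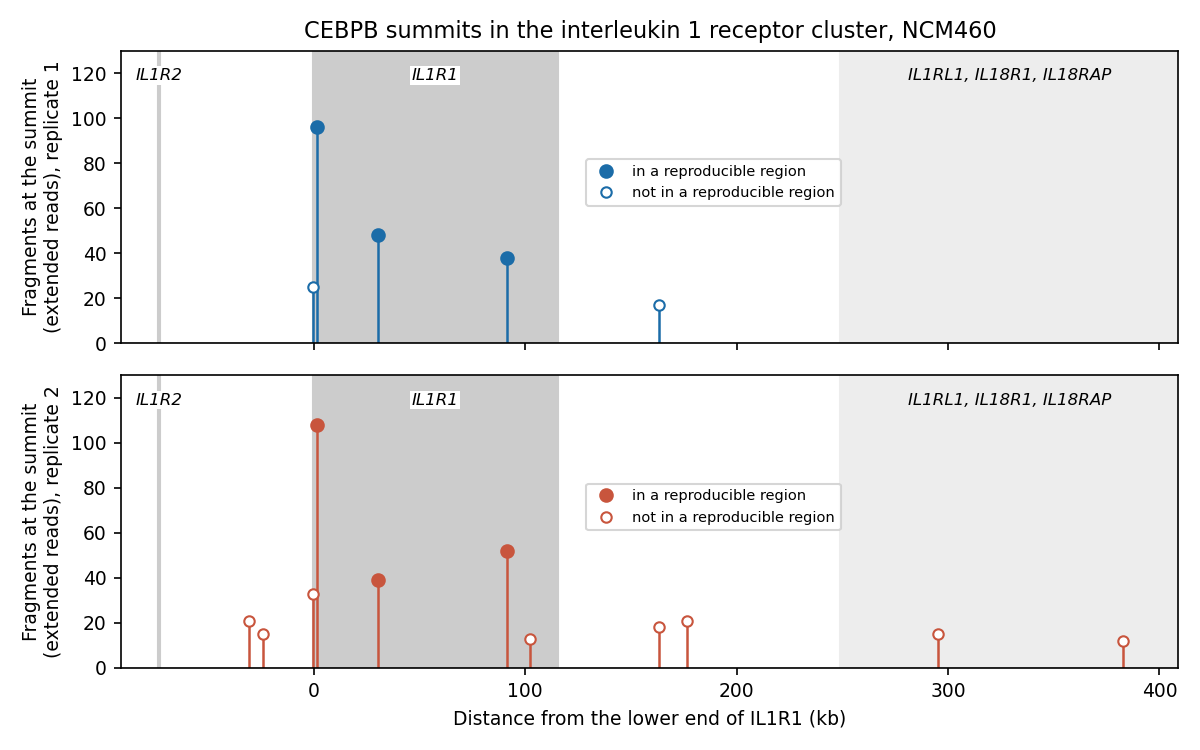
Fragments at every CEBPB summit of the receptor window (vertical axis) against the distance from the lower end of IL1R1 in kb, replicate 1 above and replicate 2 below. Filled points lie in a reproducible region and open points do not. Dark grey marks IL1R2 and the span of IL1R1, light grey the stretch of IL1RL1, IL18R1 and IL18RAP. The 3 reproducible regions fall in the IL1R1 span, with 96 and 108 fragments at the tallest.

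The decoy receptor gene IL1R2 had no summit within 10 kb of its position. The nearest reproducible region lay 23.3 kb below it, outside the window. Between the window edge and the lower end of IL1R1, replicate 1 had no summit, and replicate 2 had 2, at 102650306 with 21 fragments and at 102656842 with 15, neither with a partner. Above IL1R1, where RefSeq places the interleukin 36 receptor gene IL1RL2, a weak peak was present in both replicates, with 17 fragments at 102844321 in replicate 1 and 18 fragments at 102844392 in replicate 2. Replicate 2 had 1 more there, at 102857359 with 21 fragments.

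The stretch from 102.93 Mb on, which holds IL1RL1, IL18R1 and IL18RAP, had 0 summits in replicate 1 and 2 in replicate 2, against means of 4.24 and 5.50 for 160 kb of the genome. The summits of replicate 2 were at 102976196 with 15 fragments (fold 5.51) and at 103063985 with 12 fragments (fold 4.49). Neither was shared, so no binding at the interleukin 33 and interleukin 18 receptor genes was detectable in both replicates at this depth.

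In the list of replicate 1, 8 of 17 summits of the windows (47.1%, 95% exact binomial interval 23 to 72.2%) lay in a reproducible region, against 36.5% of all summits. In replicate 2 it was 7 of 24 (29.2%, interval 12.6 to 51.1%), against 28.6%. Of the peaks, 13 of 15 in replicate 1 (86.7%, interval 59.5 to 98.3%) and 13 of 23 in replicate 2 (56.5%, interval 34.5 to 76.8%) overlapped a peak of the other replicate by at least 1 bp, against 82.0% and 62.8% of all peaks. Each of these intervals included the share over the whole list. The 9 summits outside reproducible regions in replicate 1 had 8 to 41 fragments and the 17 in replicate 2 had 11 to 41.

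In density of sites the intervals of both windows included the value of the genome. The ligand window had 10.0 reproducible regions per Mb (95% exact Poisson interval 2.72 to 25.6) and the receptor window 6.0 (interval 1.24 to 17.5), against 8.03 on chromosome 2 and 8.43 on chromosomes 1 to 22 and X. Just outside the ligand window the next regions lay 45.3 kb below its lower edge, with 23 and 24 fragments, and 66.3 kb above its upper edge, with 65 and 60 fragments. Just below the receptor window a region with 31 and 40 fragments lay 5.27 kb from the edge.

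By fragments, the order of the sites was the same in both replicates for the tallest 4: upstream of IL1A, lower end of IL1R1, IL1B and below IL1A. The counting interval of the first did not overlap that of the second in either replicate, whereas those of the lower end of IL1R1 and IL1B overlapped. The intervals of the 4 weaker sites overlapped each other in replicate 1, and their order is not resolved there. In replicate 2 the weakest, with an interval of 18.6 to 40.5, was below the site under IL1A, with 42.3 to 72.7. By fold the leading site was the one at the lower end of IL1R1 in replicate 1 and the one upstream of IL1A in replicate 2, and the SD of 13.2 at the lower end of IL1R1 exceeded the differences among the mean folds of the leading 3, from 27.8 to 31.1.

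**Figure D2:**
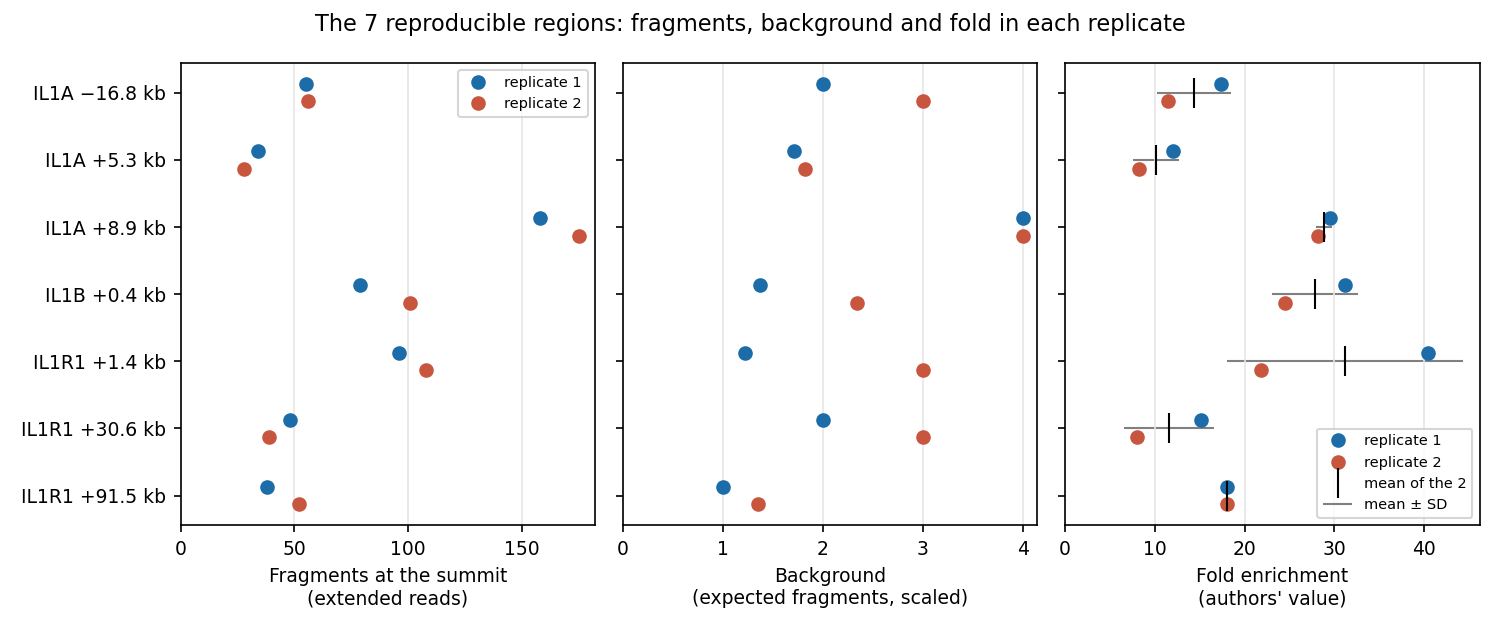
Fragments at the summit (left), background in scaled expected fragments (middle) and the authors' fold (right) of the 7 reproducible regions in replicates 1 and 2, with the mean and SD of the fold. Sites are named by their distance from the IL1A or IL1B position or the lower end of IL1R1. Fragments at the lower end of IL1R1 were 96 and 108, while its background was 1.22 and 3.00 and its fold 40.4 and 21.8.

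The fold was higher in replicate 1 at 7 of the 7 sites, against 45.5% of all reproducible regions, and the fragments were higher in replicate 2 at 5 of the 7, against 85.8%. The ratio of replicate 2 to replicate 1 ran from 0.812 to 1.37 in fragments and from 1.00 to 2.45 in background. In exact binomial tests against the share among regions of like height, 0 of the 7 differed between the libraries after Benjamini-Hochberg adjustment over all 25602 regions, against 2.92% of all. The smallest adjusted p was 0.13, at the region 30.6 kb above the lower end of IL1R1. At an unadjusted threshold of 0.05 in the same exact tests, 2 of the 7 passed, that region (p = 0.0089) and the weak one 5.30 kb above IL1A (p = 0.028), both with more fragments in replicate 1. Over all 25602 regions 16.4% passed that unadjusted threshold. These tests are two-sided and compare 2 libraries of the same condition.

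The same 2 regions were the least certain of the 7 in the authors' deposited table, with a global IDR of 0.05 for the region in IL1R1 and 0.0447 for the one above IL1A. In replicate 2 the fold of the IL1R1 region exceeded that of 0.117% of reproducible regions and the fold of the IL1A region that of 0.906%. The authors' deposited table gave 5.68e-05 for the tallest site, 9.41e-05 for the lower end of IL1R1 and 9.82e-05 for IL1B. It gave 0.00173 for the region 91.5 kb above the lower end of IL1R1 and 0.00948 for the one below IL1A. With the limit on the IDR lowered to 0.01, 5 of the 7 were kept in the authors' deposited table (3 ligand and 2 receptor regions), against 60.6% of all regions.

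The median of the mean folds was 21.1 over the 4 ligand regions and 18.1 over the 3 receptor regions, against 15.8 over all regions. The median of the mean fragments was 72.8 at the ligands and 45.0 at the receptors, against 67.0 over all regions. The log2 ratio of the median folds of ligands to receptors was 0.37 in replicate 1 and -0.01 in replicate 2, with an SD of 0.27, so the difference in fold was not larger than the spread between replicates. By median fragments the same log2 ratio was 0.48 in replicate 1 and 0.59 in replicate 2, with an SD of 0.08, higher at the ligands in both. A two-sided exact sign-flip test over the replicates, run after these values were seen, gave p = 1.0 for fold and p = 0.5 for fragments, and 0.5 is the smallest p that 2 replicates allow. The medians rest on 4 and 3 sites, whose fragments overlapped between the clusters in both replicates. The sites spread over most of the range of reproducible regions: by mean fragments they stood above 92.7, 73.9 and 67.4% of all regions at the leading 3 sites, and above 6.62 to 37.6% at the other 4.

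**Figure D3:**
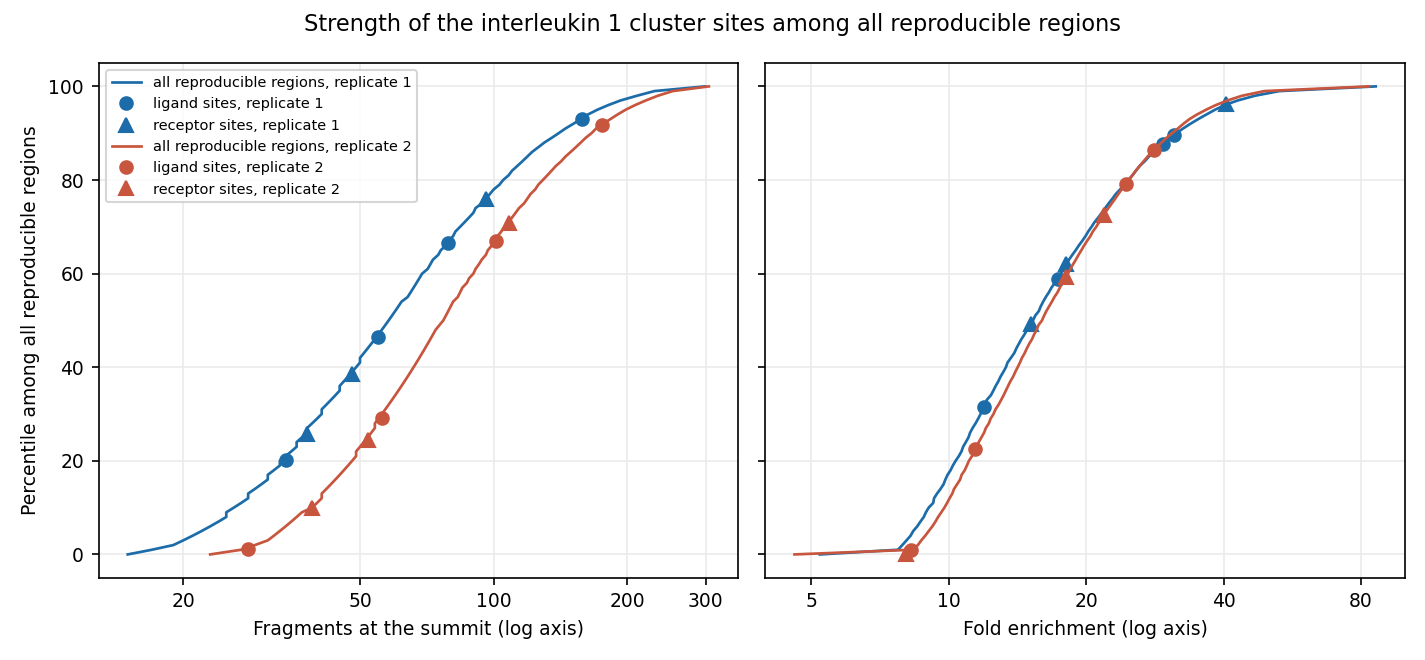
Percentile among all 25602 reproducible regions (vertical axis) against fragments (left) and fold (right) on log axes, with curves for all regions and points for the 4 ligand and 3 receptor sites in each replicate. The tallest ligand site sits above 93.1% of regions by fragments in replicate 1 and above 91.8% in replicate 2, and 2 sites lie near the bottom of the curve by fold in replicate 2.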

How the data were processed

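Per the labels, NCM460 chromatin was sonicated, precipitated with a CEBPB antibody or kept as input, and sequenced as paired 100-base reads after 18 PCR cycles. Bowtie2 2.3.4, MACS2 2.1.2, SAMtools 1.9, bedtools 2.25.0, FastQC 0.11.7 and the hg19 build are named in the submitters' processing notes. Their settings, and whether duplicate reads were removed, are not given in the sources used here. Peak lists, called per ChIP sample, as deposited give a score, a fold over background, and −log10 p-value and q-value per summit. The authors' IDR table supplied intervals, used as keys, and the −log10 global IDR; its 4 columns of values per sample were not used. Total reads were not analysed here.

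Fragments and background were solved for from fold and −log10 p (MACS2 adds 1 to pileup and background; 100% of summits gave whole reads within 0.005), and this step and the replicate test were checked on simulated data. Fragments are whole reads before scaling, and background is in the scaled units of the peak caller. Each region took the tallest summit of its paired intervals. Fragments were tested per region by exact binomial tests with Benjamini-Hochberg adjustment over all regions, with the expected share taken from a running median over regions ordered by height. Chromosomes 1 to 22 and X were used, with lengths from circlize 0.4.16. Positions are hg19, counted from 1, except the RefSeq promoters. The tools were SciPy 1.17.1, NumPy 2.4.6, pandas 2.3.3 and matplotlib 3.10.9 under Python 3.11.15. The named sites are all 7 reproducible regions, the one nearest to each gene, and the tallest and gene-proximal summits outside them; a planned NF-kB word is not reported, and other weak summits were named after their values were seen. Members, windows and lists were chosen with earlier results of these data known.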

Additional observations from a re-analysis of the deposited data

How the results depend on the processing

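Of the values under alternatives for the main results, 36 stayed within 1.5 times the main count or within the interval or spread of the main value, and 10 did not. This tally is no measure of robustness, because its limits were wide and unlike. The interval of the ligand density, from 4 regions, ran from 2.72 to 25.6 per Mb. Summit pairs thus moved the ligand count from 4 to 7, while the density went from 10.0 to 17.5 per Mb and stayed inside. For the log2 ratio, the spread was the SD of the same replicates that were left out in turn. With summit pairs within 100 bp and q no higher than 0.01 in each list in place of the IDR table, which asks for no match of rank, the 4 ligand and 3 receptor sites became 7 and 5. The number of such pairs over all chromosomes is not reported here, so this rise cannot be called particular to the windows. The log2 ratio of ligand to receptor strength, 0.22 by mean fold, was 0.69 by fragments and, with the direction turned, -0.37 over all summits, with a range of -0.01 to 0.37 when a replicate was left out; the cause was not tested. Sites inside the span of IL1R1 or IL1RN count as at the gene: on that measure those within 1 kb and within 5 kb numbered 4 each, 3 of them inside IL1R1, and 7 each over all summits of replicate 1; within 10 kb there were 6, and 11 over all summits of replicate 2. With distances to the ends of the spans only, chosen after seeing the data, there were 1 within 1 kb, at IL1B, and 2 within 5 kb. Promoters with a C/EBP word fell to 0 of 20 with TTGCGCAA only, against 7, but only 0.151% of all promoters hold that word. Regions that differed between replicates numbered 0 with one median share, against 3.60% of all regions, and 0 at an IDR of at most 0.01, against 2.28%. At an unadjusted 0.05 these settings gave 1 of 7, against 19.1% of all, and 0 of 5, against 15.8%. Of the alternatives for the percentiles of single sites, 14 stayed within the spread between replicates and 7 did not. That spread was again the SD of the same replicates that were left out in turn, so this tally is no measure of robustness either. By fragments in place of fold, the region 91.5 kb above the lower end of IL1R1 stood above 24.4% of regions and not 60.5%, and IL1B above 67.4% and not 86.5%. Without replicate 1, the lower end of IL1R1 stood above 72.5% by fold, against 90.9% with both. No paired analysis was possible because there were no values of the input samples other than the background inside the ChIP peak lists.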

Other observations

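Above the last receptor region the next reproducible region lay 3.13 Mb away, at 105907238 to 105907723 on chromosome 2. Of 25579 gaps between neighbouring reproducible regions, 33 were longer. This count takes each gap once, whatever its length, so it is not the share of the genome in longer gaps. The stretch starts inside IL1R1 and takes in the IL1RL1, IL18R1 and IL18RAP genes before it leaves the window, and it was noticed after the data were seen. It held 11 summits in replicate 1, or 3.51 per Mb, against 26.5 per Mb over the chromosomes, and 22 summits in replicate 2, or 7.02 per Mb, against 34.4 per Mb. The tallest had 55 and 63 fragments. The median background at these summits was 1.00 in replicate 1 and 1.36 in replicate 2, which is the floor of the peak caller in both, against 2.14 and 2.20 over all summits, and its part in the low number of sites was not tested.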
